A study of Mus musculus with 32 samples.

Results

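The genes described here mark the oligodendrocyte lineage, the cells that myelinate axons of the brain and spinal cord. They are 30 named genes, each read by 1 probe set with a single gene symbol, out of 19938 genes on the array. They fall into 9 genes of oligodendrocyte precursors (Olig1, Olig2, Nkx2-2, Bcan, Ncan, Vcan, Cspg4, Lhfpl3 and Neu4), 6 genes of differentiating cells (Gpr17, Bcas1, Enpp6, Zfp488, Myrf and Nkx6-2) and 15 genes of mature myelin (Mbp, Mog, Mag, Cnp, Mobp, Cldn11, Ugt8a, Omg, Opalin, Sirt2, Ermn, Mal, Fa2h, Aspa and Tspan2). All 30 genes were measured, and none was left out for a low value.

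RNA came from 32 neurosphere cultures of mouse brain tumours, each on 1 Affymetrix Mouse Gene 1.0 ST array, and values are log2 expression. The tumours grew in the brain after transplantation of neurosphere cells, taken after birth at the wall of the lateral ventricle and made to overexpress oncogenes, and cells that still expressed the transgene were sorted by flow cytometry before culture. All groups, the controls of each comparison included, carry the Trp53tm1Brd allele of a p53-deficient strain, so no culture had normal p53. No label names the promoter of the cassette or the animals' ages. Secondary tumours were MYC then HRAS (n = 2), in which HRAS was added to cells of a primitive neuroectodermal tumour (PNET), and HRAS then MYC (n = 2), in which MYC was added to glioma cells. Primary tumours were HRAS+MYC (n = 7), labelled as resembling atypical teratoid/rhabdoid tumours, MYC+Ezh2 (n = 5) and MYC+Bmi1 (n = 3), labelled PNET, HRAS+Bmi1 (n = 2) and HRAS (n = 5), labelled glioma, and MYC (n = 6), labelled PNET. No label says whether the cultures of a group came from separate tumours, so p-values measure only the spread between these arrays, which may be technical.

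Oligodendrocytes arise from precursor cells in which the transcription factors Olig1, Olig2 and Nkx2-2 set the lineage and in which chondroitin sulphate proteoglycans coat the surface. On leaving the cell cycle, the precursors pass through a short stage marked by the receptor Gpr17 and then switch on Myrf, a transcription factor that drives the myelin genes. Mature cells make the proteins and lipids of the myelin sheath, and the subventricular zone of the lateral ventricle wall holds stem cells that can give rise to this lineage.

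Ezh2, the methyltransferase of Polycomb repressive complex 2, lay between 12.02 and 12.31 in the MYC+Ezh2 cultures, above all other groups. Bmi1, a subunit of Polycomb repressive complex 1, was higher in HRAS+Bmi1 than in HRAS cultures by 0.89 ± 0.225 (log2 difference ± SE, limma adjusted p = 0.0152), whereas the difference between MYC+Bmi1 and MYC cultures was 0.24 ± 0.19 (limma adjusted p = 0.668). The mouse Myc probe set was not higher in the cultures labelled MYC: it lay between 6.12 and 8.23 there and between 10.44 and 12.85 in HRAS cultures. No label gives the species of the MYC cassette, so this probe set does not check the label. MYC cultures 4 and 5 stood apart from the other MYC cultures: the mean of 9 neuron markers was 9.22 and 9.28 in them and between 6.46 and 7.73 in the other 4 cultures, and Sox2, a neural stem cell factor, was at 4.85 and 6.62 there against 10.74 or more in the others. Prom1, another neural stem cell marker, went the other way, at 8.11 and 8.33 in MYC cultures 4 and 5 and 4.98 to 6.67 in the others. HRAS culture 3 stood apart from the other HRAS cultures in many of the genes described below. The counts of genes that differed from MYC cultures are given with and without MYC cultures 4 and 5. These cultures and HRAS culture 3 were singled out from values of the same arrays. MYC cultures 4 and 5 were low, and HRAS culture 3 high, in genes such as Olig1 and Olig2. For such genes, leaving them out widens the difference by construction. The fits without them show how far results depend on these cultures and lend no added support. Among markers of other cells, the mean of 8 microglia and macrophage markers stayed between 4.83 and 5.68 over all 32 arrays. That of 3 ependymal markers stayed between 5.1 and 5.53, and both lay below the median of 6.281 over all genes and arrays. Pmp22, a myelin gene of Schwann cells, ranged between 6.21 and 10.65. The other Schwann cell markers measured varied less, Foxd3 between 5.48 and 6.39 and Egr2 between 5.16 and 7.59. Among the microglia and macrophage markers the lysosomal gene Cd68 was higher in HRAS than in MYC cultures by 3.13 ± 0.499 (limma adjusted p = 1.39e-05), while the microglia genes Aif1, Ptprc and Cx3cr1 stayed at 6.09 or below on every array.

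Across the 8 groups the highest mean belonged to the MYC cultures for 18 of the 30 genes: 6 of the 9 precursor genes, 5 of the 6 differentiation genes and 7 of the 15 mature myelin genes. In 10 genes no group mean rose above 6.281, the median of all gene values. These were Neu4, Zfp488, Mog, Mag, Mobp, Opalin, Ermn, Mal, Fa2h and Aspa, so 8 of the 15 mature myelin genes belonged to them, against 1 of 9 precursor genes. In 6 of those (Neu4, Mog, Mag, Mobp, Opalin and Ermn) every single array was at or below that median. The distance between the lowest and the highest array had a median of 5.35 in the precursor class, 3.49 in the differentiation class and 2.58 in the mature myelin class. Levels are given per probe set, so they are not compared between genes. MYC cultures 1 and 2 each held the highest value of the series for 7 genes, and MYC culture 6 and MYC+Ezh2 culture 1 for 4 genes each.

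**Figure D1:**
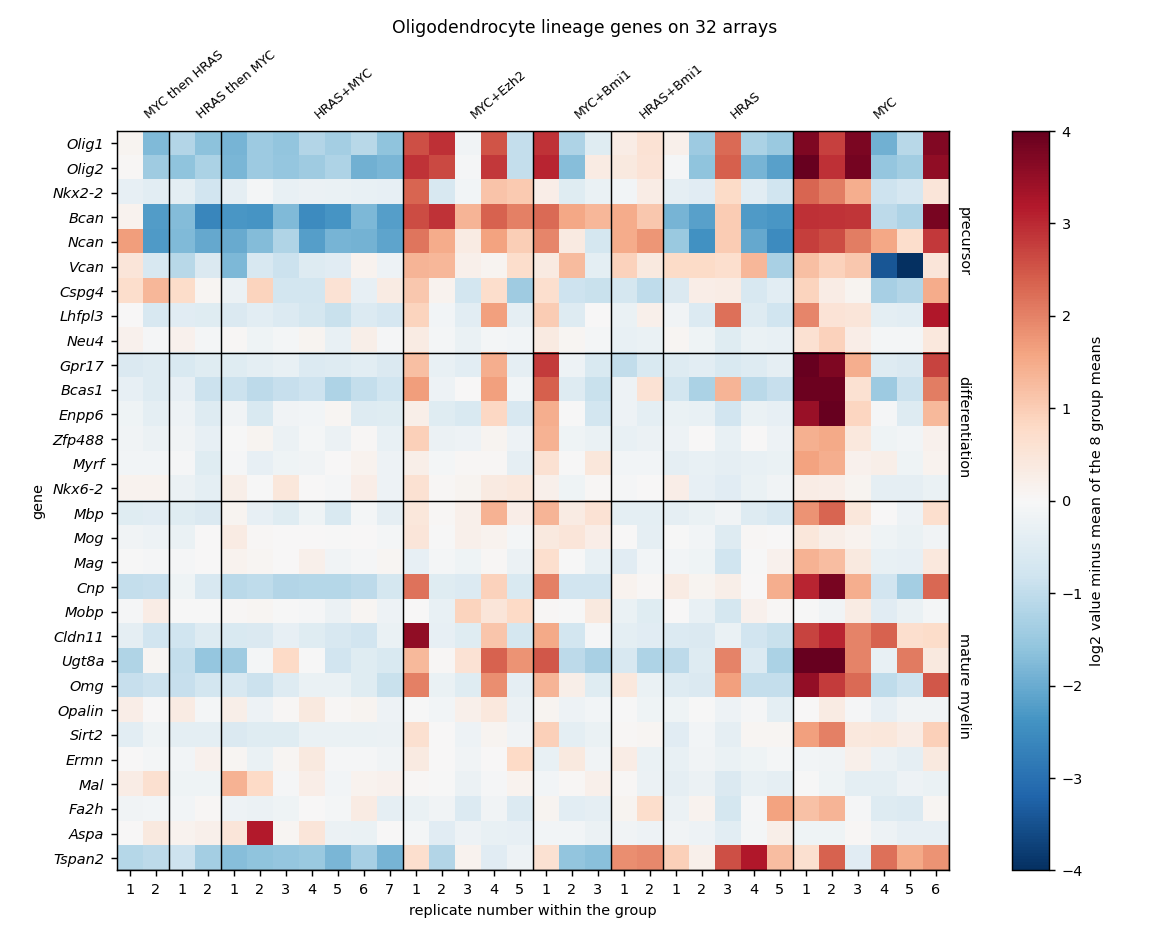
Log2 value of each gene (rows, in the precursor, differentiation and mature myelin classes) minus the mean of the 8 group means, on each of the 32 arrays (columns, by group and replicate number), with colours capped at 4 log2 units either way. MYC cultures 1, 2, 3 and 6 are high in most precursor genes, MYC cultures 1 and 2 are high in Gpr17, Bcas1, Enpp6 and Myrf, and the HRAS+MYC cultures are low in Olig1, Olig2, Bcan and Ncan.

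HRAS cultures had less RNA of several lineage genes than MYC cultures, from the precursor proteoglycans Bcan and Ncan to the myelin genes Cldn11, Ugt8a and Mbp. Of the 30 genes, 12 were lower and 0 higher at a limma adjusted p under 0.05, while 18.0% of all genes tested were lower and 15.4% higher. By class, 3 of 9 precursor, 3 of 6 differentiation and 6 of 15 mature myelin genes were lower. The median log2 difference was -0.88 over the 30 genes and -0.03 over all genes, and it was -1.05 in the precursor, -1.39 in the differentiation and -0.16 in the mature myelin class. In 3 of the 30 genes, Myrf, Cldn11 and Sirt2, all HRAS arrays lay below all MYC arrays, as they did in 6.91% of all genes. In bulk RNA, fewer cells of the lineage and less RNA per cell cannot be told apart. Without MYC cultures 4 and 5, 19 of the 30 genes were lower in HRAS cultures (7 precursor, 5 differentiation and 7 mature myelin genes), while 16.8% of all genes were lower in that fit. Without HRAS culture 3, 16 were lower (7, 4 and 5), while 18.3% of all genes were.

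HRAS+MYC cultures had less RNA than MYC cultures of the lineage factors Olig1 and Olig2, of Bcan and Ncan and of myelin genes such as Cnp and Tspan2. Of the 30 genes, 17 were lower and 1, the myelin gene Mal, was higher, while 18.4% of all genes tested were lower and 15.8% higher. By class, 6 of 9 precursor, 4 of 6 differentiation and 7 of 15 mature myelin genes were lower. The median log2 difference was -1.09 over the 30 genes and 0.03 over all genes, with -1.52 in the precursor, -1.24 in the differentiation and -0.43 in the mature myelin class. In 5 genes, Bcan, Ncan, Cldn11, Sirt2 and Tspan2, the HRAS+MYC arrays all lay below the MYC arrays, as they did in 8.04% of all genes. Without MYC cultures 4 and 5, 21 genes were lower and 1 higher, while 17.3% of all genes were lower and 15.2% higher.

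Between HRAS+MYC and HRAS cultures 2 of the 30 genes differed: Tspan2 was lower and Mal higher, while 13.0% of all genes tested were lower and 11.7% higher. None of the 9 precursor genes passed limma's adjusted threshold. The median log2 difference was -0.66 for the precursor, 0.07 for the differentiation and 0.11 for the mature myelin genes, against 0.05 over all genes. These 3 comparisons share cultures, so their counts are not independent of each other.

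Markers of other cells moved in the same comparisons. Of all genes tested, 18.0% were lower and 15.4% higher in HRAS than in MYC cultures. In HRAS+MYC against MYC cultures these shares were 18.4% and 15.8%. Of 9 neuron markers, 6 were lower in HRAS than in MYC cultures and 7 were lower in HRAS+MYC than in MYC cultures, and the mean of the 9 ranged between 5.55 and 6.11 in HRAS+MYC, 5.17 and 6.8 in HRAS, and 6.46 and 9.28 in MYC cultures. Of 8 astrocyte markers, 4 were lower and 2 higher in HRAS than in MYC cultures, with the mean of the 8 between 6.64 and 7.19 in HRAS and between 6.4 and 8.96 in MYC cultures. Of 5 neural stem cell markers, 2 were lower (Prom1 and Fabp7) and 2 higher (Nes and Vim) in HRAS than in MYC cultures. The part of other cell types in the lineage results was not tested.

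**Figure D2:**
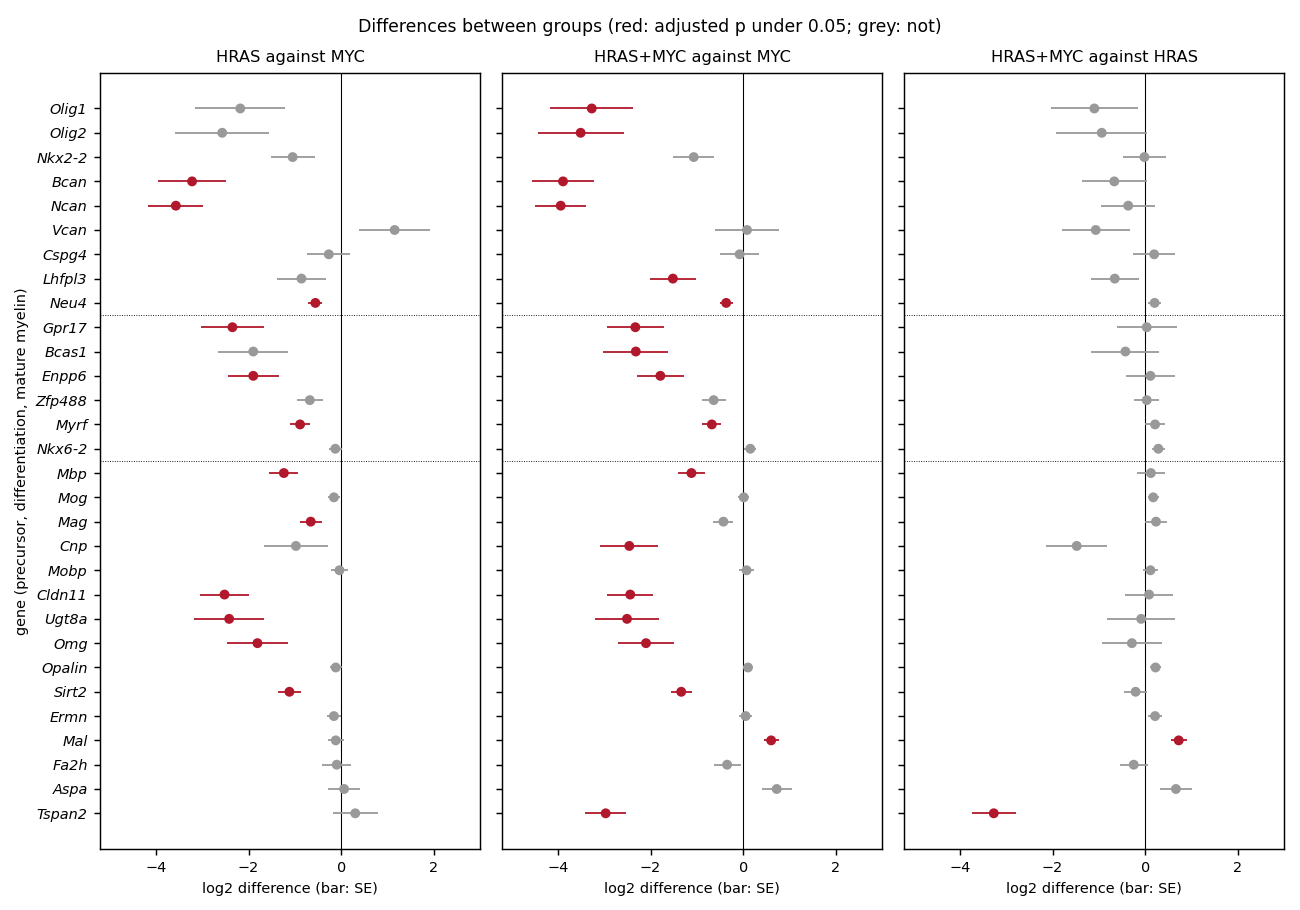
Log2 difference (point) with its standard error (bar) for each of the 30 genes in 3 comparisons, with red points at a limma adjusted p under 0.05 and grey points for the others. Red points lie left of 0 for 12 genes in HRAS against MYC and for 17 genes in HRAS+MYC against MYC, and Mal is the red point right of 0 in both panels with HRAS+MYC cultures.

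Olig1 and Olig2 are neighbouring basic helix-loop-helix genes, and Olig2 is needed to form the precursors. Olig2 read 6.51, 4.95, 8.94, 4.7 and 4.37 in HRAS cultures, while MYC cultures had a lowest value of 5.02, a median of 9.8 and a highest of 10.57. Of the MYC cultures, 1, 2, 3 and 6 were high and 4 and 5 were low, within the HRAS range, so the groups overlapped. The difference of -2.57 ± 1.01 did not pass (limma adjusted p = 0.051), whereas it was -4.25 without MYC cultures 4 and 5 (limma adjusted p = 0.000323) and -3.33 without HRAS culture 3 (limma adjusted p = 0.0111). In HRAS+MYC cultures Olig2 had a lowest value of 4.63, a median of 5.02 and a highest of 5.32, a band of low values that met the 2 low MYC cultures. Olig2 was 11.4-fold lower in HRAS+MYC than in MYC cultures (log2 difference -3.51 ± 0.928, limma adjusted p = 0.00378), and the difference was -5.19 without MYC cultures 4 and 5 (limma adjusted p = 1.04e-05).

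Olig1, which promotes maturation of the precursors, followed the same arrays. It read 7.21, 5.55, 9.28, 5.75 and 5.54 in HRAS cultures, against a lowest of 5.11, a median of 10.25 and a highest of 10.78 in MYC cultures. The difference of -2.18 ± 0.972 did not pass (limma adjusted p = 0.0886), and it was -3.84 without MYC cultures 4 and 5 (limma adjusted p = 0.000457) and -2.83 without HRAS culture 3 (limma adjusted p = 0.0274). All 7 HRAS+MYC cultures were low, with a lowest of 5.17, a median of 5.56 and a highest of 5.9. Olig1 was 9.66-fold lower in HRAS+MYC than in MYC cultures (log2 difference -3.27 ± 0.893, limma adjusted p = 0.00491), and the difference was -4.94 without MYC cultures 4 and 5 (limma adjusted p = 8.1e-06).

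Nkx2-2, a homeobox factor of the precursors and of their step to differentiation, read 5.36, 5.26, 6.49, 5.28 and 4.92 in HRAS cultures, while MYC cultures had a lowest of 4.87, a median of 6.67 and a highest of 8.05. MYC cultures 1, 2 and 3 lay above all HRAS cultures, and MYC culture 6, at 6.2, lay below HRAS culture 3. The difference of -1.05 ± 0.478 did not pass (limma adjusted p = 0.096), and it was -1.83 without MYC cultures 4 and 5 (limma adjusted p = 0.00101) and -1.31 without HRAS culture 3 (limma adjusted p = 0.0436). In HRAS+MYC cultures Nkx2-2 had a lowest of 5.34, a median of 5.41 and a highest of 5.64, and its difference to MYC of -1.07 ± 0.439 did not pass (limma adjusted p = 0.0609), against -1.85 without MYC cultures 4 and 5 (limma adjusted p = 0.000428).

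Promoter windows were searched for a few short motifs. RefSeq windows of 300 bases on GRCm38.p6, 250 before to 50 after the annotated start, were at hand for 23 of the 30 genes. The letters searched on both strands were CAGCTG (an E-box), CAGATG (another E-box), CACGTG (the E-box of MYC family factors), ACAAAG (a SOX core) and TGANTCA (the motif of AP-1 factors). They stand in 16.3%, 17.2%, 7.15%, 18.7% and 7.81% of all 32851 mouse promoter windows and in 5, 4, 1, 5 and 0 of the 23 genes, in that order. The 2 windows of lineage factors below, Olig2 at chr16:91225300-91225599 on the plus strand and Nkx2-2 at chr2:147186353-147186652 on the minus strand, are given 5′ to 3′ with matches in capitals. The window of Olig2 holds none of the letters searched, and that of Nkx2-2 holds CATCTG, the reverse complement of CAGATG, starting at -220 and CACGTG starting at -173 from the start site. A match describes the letters and is no evidence that a factor binds.
Olig2: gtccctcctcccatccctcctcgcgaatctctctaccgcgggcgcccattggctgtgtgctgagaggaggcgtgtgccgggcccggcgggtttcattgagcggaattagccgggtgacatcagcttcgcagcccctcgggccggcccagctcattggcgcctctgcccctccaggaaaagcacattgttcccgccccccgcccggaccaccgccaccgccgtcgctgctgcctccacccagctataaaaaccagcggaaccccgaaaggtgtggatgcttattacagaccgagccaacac
Nkx2-2: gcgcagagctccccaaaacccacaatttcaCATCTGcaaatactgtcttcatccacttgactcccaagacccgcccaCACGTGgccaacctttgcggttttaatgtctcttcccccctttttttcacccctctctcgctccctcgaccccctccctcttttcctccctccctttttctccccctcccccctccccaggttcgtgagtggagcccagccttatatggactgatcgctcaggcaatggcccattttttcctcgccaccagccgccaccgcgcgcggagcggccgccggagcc

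Bcan and Ncan code for brevican and neurocan, lecticans of the brain matrix that precursors and astrocytes also make. Bcan read 5.86, 5.54, 8.73, 5.44 and 5.37 in HRAS cultures, against a lowest of 6.46, a median of 10.58 and a highest of 11.51 in MYC cultures. Only HRAS culture 3 lay above the 2 low MYC cultures, 4 and 5, and the other 4 HRAS cultures lay below all MYC cultures. Bcan was 9.3-fold lower in HRAS than in MYC cultures (log2 difference -3.22 ± 0.727, limma adjusted p = 0.000876). In HRAS+MYC cultures it had a lowest of 5.2, a median of 5.37 and a highest of 5.93, below every MYC culture, and the difference was -3.89 ± 0.668 (limma adjusted p = 3.53e-05). The Bcan differences without MYC cultures 4 and 5 were -4.64 in HRAS and -5.31 in HRAS+MYC cultures (limma adjusted p = 7.87e-08 and 2.16e-09).

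Ncan read 6.51, 5.56, 8.99, 5.94 and 5.47 in HRAS cultures, against a lowest of 8.67, a median of 10.3 and a highest of 10.82 in MYC cultures. Ncan differed from Olig1 and Olig2 in MYC cultures 4 and 5, where it stayed at 9.52 and 8.67. The neuron marker mean was 9.22 and 9.28 in those cultures and 6.46 to 7.73 in the other MYC cultures. The part of neurons in the Ncan results was not tested. Ncan was 11.9-fold lower in HRAS than in MYC cultures (log2 difference -3.57 ± 0.596, limma adjusted p = 2.6e-05), with HRAS culture 3 inside the MYC range. In HRAS+MYC cultures Ncan had a lowest of 5.79, a median of 6.1 and a highest of 6.77, all below the MYC cultures, and it was 15.3-fold lower (log2 difference -3.94 ± 0.548, limma adjusted p = 1.66e-06). The Ncan window, shown because Ncan had the largest log2 difference of the 30 genes in both comparisons with MYC, lies at chr8:70120795-70121094 on the minus strand and holds CAGCTG, in capitals, starting at -58 from the start site.
Ncan: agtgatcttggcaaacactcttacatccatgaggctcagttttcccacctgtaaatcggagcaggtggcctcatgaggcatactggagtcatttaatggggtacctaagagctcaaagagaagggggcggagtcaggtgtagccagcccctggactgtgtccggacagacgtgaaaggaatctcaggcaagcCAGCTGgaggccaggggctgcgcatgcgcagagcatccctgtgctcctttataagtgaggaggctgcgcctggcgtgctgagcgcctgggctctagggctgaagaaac

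Vcan, the gene of the lectican versican, did not pass in either comparison with MYC. It read 9.36, 9.36, 9.28, 9.94 and 7.31 in HRAS cultures, against a lowest of 4.12, a median of 9.31 and a highest of 9.81 in MYC cultures. The low MYC values were cultures 5 (4.12) and 4 (5.17), and the other 4 MYC cultures lay between 9.1 and 9.81. Vcan differed by 1.15 ± 0.761 between HRAS and MYC cultures (limma adjusted p = 0.28) and by 0.08 ± 0.699 between HRAS+MYC and MYC cultures (limma adjusted p = 0.948). Without MYC cultures 4 and 5 both signs turned, to -0.48 (limma adjusted p = 0.462) and to -1.55, which passed (limma adjusted p = 0.00345).

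Cspg4, the NG2 proteoglycan of precursors and pericytes, did not pass in the 3 comparisons. Its differences were -0.27 ± 0.466 for HRAS against MYC, -0.08 ± 0.428 for HRAS+MYC against MYC and 0.19 ± 0.45 for HRAS+MYC against HRAS. Lhfpl3, a tetraspan membrane protein gene used as a precursor marker, was lower in HRAS+MYC than in MYC cultures (log2 difference -1.52 ± 0.495, limma adjusted p = 0.0174). It peaked at 9.33 in MYC culture 6, 8.32 in HRAS culture 3 and 8.07 in MYC culture 1, and without MYC culture 1 or 6 that call was lost. Neu4, a sialidase gene of precursors, was lower in HRAS than in MYC cultures (log2 difference -0.56 ± 0.149, limma adjusted p = 0.00372) and in HRAS+MYC than in MYC cultures (log2 difference -0.37 ± 0.137, limma adjusted p = 0.0377). The second of these calls was lost when any one of 7 of the 13 cultures was left out, MYC cultures 1, 2 and 6 and HRAS+MYC cultures 2, 3, 5 and 7.

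**Figure D3:**
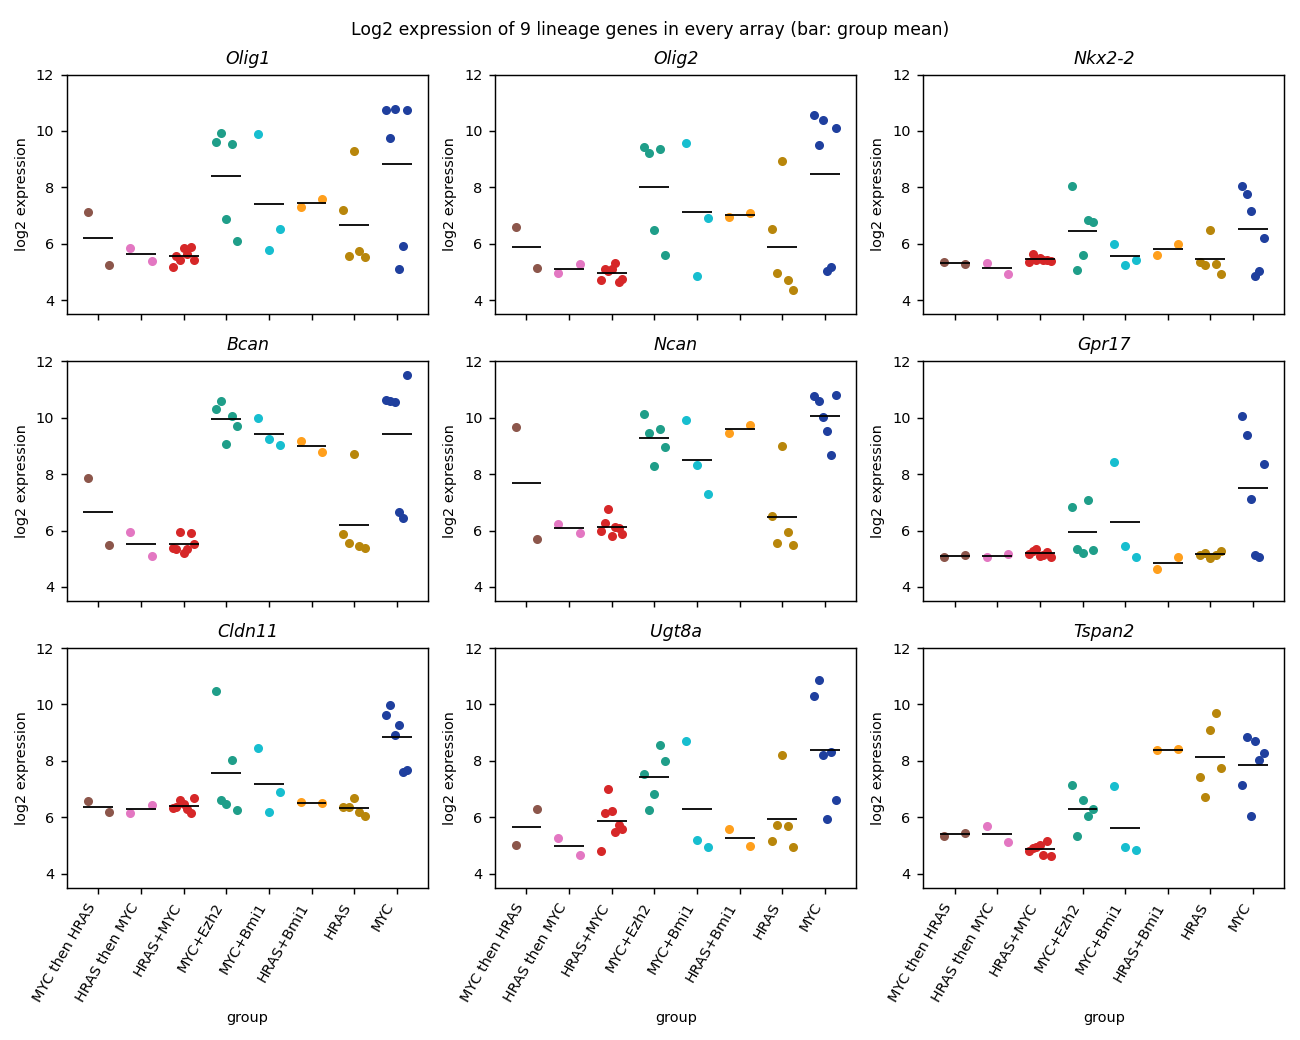
Log2 expression of 9 genes on every array (points) with the group mean (bar), by group, on a common axis. Olig1, Olig2 and Bcan split the MYC cultures into 4 high and 2 low values, the 7 HRAS+MYC cultures lie in a narrow low band for Bcan and Ncan, and Tspan2 is high in HRAS+Bmi1, HRAS and MYC cultures.

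Of the genes of the differentiating stage, Gpr17, Bcas1, Enpp6 and Myrf were high in MYC cultures 1 and 2. Gpr17, a receptor of committed precursors, read 5.14, 5.21, 5.04, 5.12 and 5.28 in HRAS cultures, while MYC cultures had a lowest of 5.06, a median of 7.73 and a highest of 10.06. MYC cultures 1 and 2 were highest at 10.06 and 9.39, cultures 3 and 6 were lower and cultures 4 and 5 lay among the HRAS values. HRAS culture 3, high in Olig1 and Olig2, had the lowest Gpr17 value of the HRAS cultures. Gpr17 was 5.12-fold lower in HRAS than in MYC cultures (log2 difference -2.35 ± 0.672, limma adjusted p = 0.00691). Gpr17 lost that call in the fit on HRAS and MYC cultures alone (limma adjusted p = 0.065). In HRAS+MYC cultures it had a lowest of 5.07, a median of 5.15 and a highest of 5.34, with a difference to MYC of -2.33 ± 0.617 (limma adjusted p = 0.00388). The Gpr17 differences without MYC cultures 4 and 5 were -3.57 in HRAS and -3.54 in HRAS+MYC cultures (limma adjusted p = 6.58e-06 and 2.42e-06). Gpr17 was also high in MYC+Bmi1 culture 1, at 8.44, and in MYC+Ezh2 cultures 4 and 1, at 7.09 and 6.85.

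Enpp6, a choline phosphodiesterase gene of newly forming oligodendrocytes, rose to 8.27 and 8.92 in MYC cultures 1 and 2. Its highest value was 4.57 in HRAS and 4.91 in HRAS+MYC cultures. Enpp6 was lower in HRAS than in MYC cultures (log2 difference -1.90 ± 0.552, limma adjusted p = 0.00791). The fit on HRAS and MYC cultures alone lost that call (limma adjusted p = 0.0906). Enpp6 was also lower in HRAS+MYC than in MYC cultures (log2 difference -1.79 ± 0.508, limma adjusted p = 0.00655). Myrf reached 7.53 and 7.35 in MYC cultures 1 and 2, and its HRAS values, 5.55 to 5.66, lay below every MYC culture (log2 difference -0.89 ± 0.223, limma adjusted p = 0.00236). Myrf, too, lost its call in the fit on HRAS and MYC cultures alone (limma adjusted p = 0.0557). Bcas1, a marker of early myelinating cells, was at 9.46 and 9.44 in MYC cultures 1 and 2. It was lower in HRAS+MYC than in MYC cultures (log2 difference -2.32 ± 0.699, limma adjusted p = 0.0102), and its difference between HRAS and MYC of -1.90 ± 0.76 did not pass (limma adjusted p = 0.0558). That difference passed without MYC cultures 4 and 5, at -3.16 (limma adjusted p = 0.000364), and without HRAS culture 3, at -2.37 (limma adjusted p = 0.0193), as well as without MYC culture 4 or 5 alone. Outside the MYC group the 4 highest Bcas1 values were 7.92 in MYC+Bmi1 culture 1, 7.21 and 7.17 in MYC+Ezh2 cultures 1 and 4 and 6.9 in HRAS culture 3. Zfp488, a zinc finger gene of oligodendrocyte maturation, differed by -0.68 ± 0.283 between HRAS and MYC cultures (limma adjusted p = 0.0675), and by -1.01 without MYC cultures 4 and 5, which passed (limma adjusted p = 0.00703), as did the difference without MYC culture 4 or 5 alone. Between HRAS+MYC and MYC cultures it differed by -0.64 (limma adjusted p = 0.0574), which passed without MYC culture 4, 5 or 6, and by -0.98 without cultures 4 and 5 together (limma adjusted p = 0.00533). Nkx6-2, a homeobox gene expressed in maturing oligodendrocytes, varied by 1.04 over all arrays, was highest in MYC+Ezh2 culture 1 at 7.19, and did not pass in the 3 comparisons.

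The mature myelin genes are given in 2 parts, first those with a group mean above 6.281, the median of all gene values, and then those with none. Cldn11, which codes for the tight junction protein of myelin, read 6.38, 6.37, 6.68, 6.17 and 6.05 in HRAS cultures, against a lowest of 7.61, a median of 9.11 and a highest of 9.99 in MYC cultures. No HRAS culture reached the lowest MYC culture, and MYC culture 4, low in Olig1 and Olig2, had a Cldn11 value of 9.29. Cldn11 was 5.74-fold lower in HRAS than in MYC cultures (log2 difference -2.52 ± 0.535, limma adjusted p = 0.00045). In HRAS+MYC cultures it had a lowest of 6.16, a median of 6.35 and a highest of 6.69, again below every MYC culture (log2 difference -2.44 ± 0.492, limma adjusted p = 0.000255).

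Ugt8a, the enzyme that makes the myelin lipid galactosylceramide, read 5.17, 5.72, 8.21, 5.69 and 4.95 in HRAS cultures, against a lowest of 5.94, a median of 8.25 and a highest of 10.87 in MYC cultures. HRAS culture 3 lay within the MYC range and the other 4 HRAS cultures below it. Ugt8a was lower in HRAS than in MYC cultures (log2 difference -2.42 ± 0.759, limma adjusted p = 0.0135). That call was lost in the fit on HRAS and MYC cultures alone (limma adjusted p = 0.0744). HRAS+MYC cultures had a lowest of 4.79, a median of 5.74 and a highest of 7.01, and the difference to MYC was -2.51 ± 0.697 (limma adjusted p = 0.00554).

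Tspan2, a tetraspanin gene of oligodendrocytes, was high in both groups with 1 oncogene. It read 7.44, 6.71, 9.09, 9.71 and 7.73 in HRAS cultures, while HRAS+MYC cultures had a lowest of 4.63, a median of 4.9 and a highest of 5.17 and MYC cultures a lowest of 6.03, a median of 8.15 and a highest of 8.85. The HRAS+MYC cultures lay below every culture of either group with 1 oncogene. Tspan2 was 9.62-fold lower in HRAS+MYC than in HRAS cultures (log2 difference -3.27 ± 0.471, limma adjusted p = 8.18e-06) and 7.82-fold lower than in MYC cultures (log2 difference -2.97 ± 0.448, limma adjusted p = 5.7e-06). HRAS and MYC cultures differed by 0.30 ± 0.488 (limma adjusted p = 0.715).

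Cnp, an enzyme gene of myelin and its precursors, peaked at 11.64 and 12.38 in MYC cultures 1 and 2. It was 5.51-fold lower in HRAS+MYC than in MYC cultures (log2 difference -2.46 ± 0.628, limma adjusted p = 0.00278), and it differed between HRAS and MYC cultures by -0.98 ± 0.684 (limma adjusted p = 0.307), which became -2.22 without MYC cultures 4 and 5 (limma adjusted p = 0.00189). All HRAS+MYC values, 7.41 to 7.88, lay below all HRAS values, 8.6 to 10.06, but the difference of -1.48 ± 0.661 did not pass (limma adjusted p = 0.108). It passed in the fit on HRAS+MYC and HRAS cultures alone (limma adjusted p = 0.00029). The Cnp window is shown as that of a myelin gene with a match to the SOX core. It lies at chr11:100574689-100574988 on the plus strand and holds ACAAAG, in capitals, starting at -167 from the start site.
Cnp: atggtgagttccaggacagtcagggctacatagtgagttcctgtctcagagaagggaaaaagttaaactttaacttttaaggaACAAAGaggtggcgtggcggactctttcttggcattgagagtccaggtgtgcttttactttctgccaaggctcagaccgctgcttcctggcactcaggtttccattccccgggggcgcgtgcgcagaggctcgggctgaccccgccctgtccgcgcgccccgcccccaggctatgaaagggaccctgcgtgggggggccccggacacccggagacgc

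Omg, which codes for the oligodendrocyte myelin glycoprotein, was lower in HRAS than in MYC cultures (log2 difference -1.81 ± 0.666, limma adjusted p = 0.0363), a call that was lost when any one of 8 of the 11 cultures was left out (all but HRAS culture 3 and MYC cultures 4 and 5). Sirt2, a deacetylase abundant in myelin, lay between 9.02 and 9.58 in HRAS and between 9.78 and 11.49 in MYC cultures, with no overlap (log2 difference -1.12 ± 0.25, limma adjusted p = 0.00074). Mbp, which codes for the myelin basic protein that compacts the sheath, reached 8.38 and 7.85 in MYC cultures 2 and 1 and was lower in HRAS than in MYC cultures (log2 difference -1.24 ± 0.315, limma adjusted p = 0.00269). Mbp was also lower in HRAS+MYC than in MYC cultures (log2 difference -1.12 ± 0.289, limma adjusted p = 0.00317).

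Among the genes with no group mean above 6.281 was Mag, which codes for the adhesion protein between myelin and axon. It was lower in HRAS than in MYC cultures (log2 difference -0.66 ± 0.236, limma adjusted p = 0.0303). That call was lost without HRAS culture 3 or without MYC culture 1 or 2. Mal, a proteolipid gene of myelin and epithelia, was the gene that rose: it was higher in HRAS+MYC than in HRAS cultures by 0.72 ± 0.169 (limma adjusted p = 0.00209) and than in MYC cultures by 0.60 ± 0.16 (limma adjusted p = 0.00403), and its highest values were 6.77 and 6.19 in HRAS+MYC cultures 1 and 2. Mog, Mobp, Opalin, Ermn, Fa2h and Aspa did not pass in the 3 comparisons. Mog is a surface glycoprotein gene of the outer sheath, Mobp a gene of compact myelin, Opalin and Ermn genes of late oligodendrocytes, Fa2h a hydroxylase gene of myelin lipids and Aspa the gene that splits N-acetylaspartate. Aspa reached 6.97 in HRAS+MYC culture 2 and was at 4.3 or below on every other array. Fa2h was highest at 6.85 in HRAS culture 5, followed by 6.6 and 6.43 in MYC cultures 2 and 1.

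Precursor and myelin genes were then set beside each other within each array, with a class level taken as the median over its genes of the log2 deviation from the mean of the 8 group means. In MYC cultures 1 and 2 the precursor level was 2.34 and 2.05, the differentiation level 2.53 and 2.62 and the mature myelin level 1.18 and 1.35. In MYC culture 6 the precursor level was the highest of the series at 2.84, while the differentiation and mature myelin levels were 0.72 and 0.4. HRAS culture 3 had a precursor level of 1.01 beside a differentiation level of -0.4 and a mature myelin level of -0.26. With the mean over genes in place of the median, the mature myelin level of HRAS culture 3 was 0.1 and its differentiation level -0.19. The sign of its mature myelin level thus depended on that choice. Single genes of the later classes were nevertheless high there, with Ugt8a at 8.21, and 6 of the 15 mature myelin genes were above 6.281 in it, against 3 or 4 in the other HRAS cultures.

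The differentiation level was above 0 on 7 of the 32 arrays, and all 7 had a precursor level above 0. In the HRAS+MYC cultures the precursor level lay between -1.79 and -0.54 and the mature myelin level between -0.24 and 0.04, so the precursor level was the lower of the 2 on each of the 7 arrays. No group mean rose above 6.281 in 8 of the 15 mature myelin genes, against 1 of 9 precursor genes. A median over mostly dim genes can move little, so the order of the 2 levels does not show which class fell more. In MYC+Ezh2 cultures 1 to 5 the precursor level was 2.15, 1.32, -0.1, 1.61 and -0.12 and the mature myelin level 0.45, -0.12, -0.17, 0.14 and -0.21. No test was made on these levels, since the genes of a class are not replicates. Of the 9 precursor genes, 8 were above 6.281 in MYC cultures 1, 2 and 3 and 2 in MYC cultures 4 and 5, and of the 15 mature myelin genes 8, 8 and 6 were above it in cultures 1, 2 and 3 and 4 and 5 in cultures 4 and 5.

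**Figure D4:**
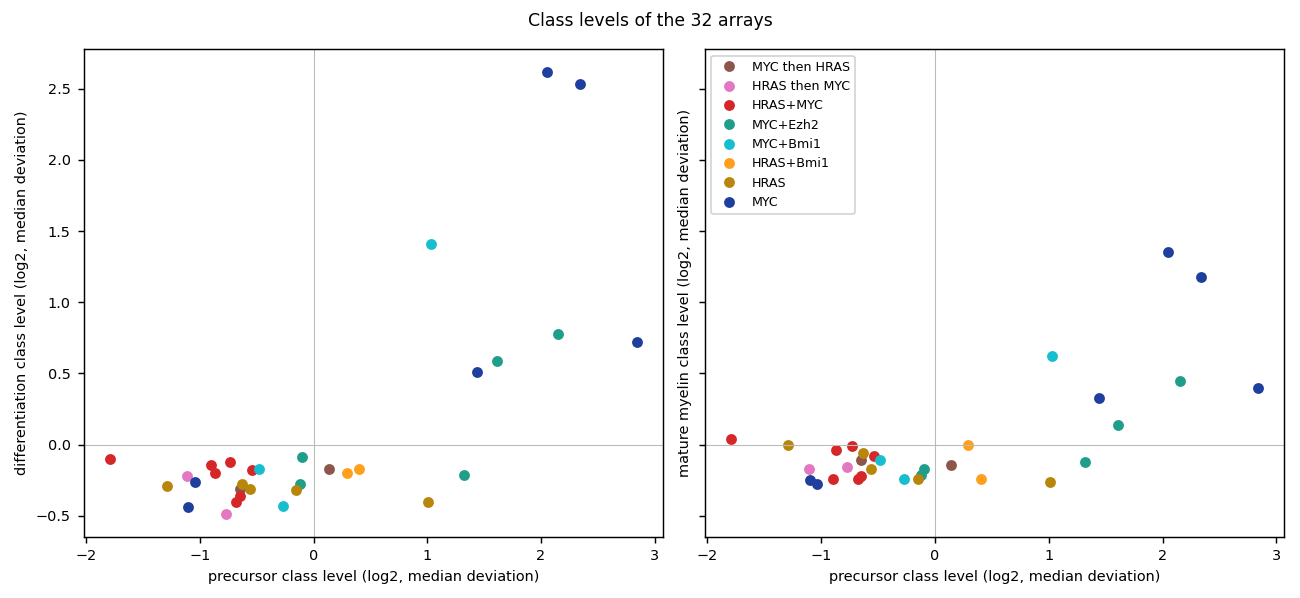
Median log2 deviation of the differentiation genes (left) and of the mature myelin genes (right) against that of the precursor genes, 1 point per array, coloured by group. MYC cultures 1 and 2 are at the upper right with precursor levels of 2.34 and 2.05, and HRAS culture 3, with a precursor level of 1.01, has differentiation and mature myelin levels below 0.

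With Ezh2 or Bmi1 added to MYC, no gene of the lineage passed the threshold in the fit reported here. Some other fits, given at the end, called genes of the lineage lower. For MYC+Ezh2 against MYC, 0 of 30 genes were lower and 0 higher at a limma adjusted p under 0.05, while 0.115% of all genes tested were lower and 0.13% higher, and at an unadjusted limma p under 0.05, 8 were lower and 2 higher, against 4.62% and 6.15% of all genes. Olig2 read 9.44, 9.2, 6.5, 9.37 and 5.61 in MYC+Ezh2 cultures 1 to 5, which overlapped the MYC cultures throughout their range. Its difference was -0.44 ± 1.01 (limma adjusted p = 0.925), that of Olig1 -0.44 ± 0.972 (limma adjusted p = 0.919) and that of Nkx2-2 -0.05 ± 0.478 (limma adjusted p = 0.985). Bcan read 10.32, 10.6, 9.06, 10.06 and 9.72 there, and none of the MYC+Ezh2 cultures had Bcan as low as MYC cultures 4 and 5. Without MYC cultures 4 and 5, 7 of the 30 genes were lower in MYC+Ezh2 cultures, while 0.727% of all genes were.

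For MYC+Bmi1 against MYC, 0 of 30 genes passed in either direction, while 0.0502% of all genes tested were lower and 0.1% higher, and 5 were lower and 1 higher at an unadjusted limma p under 0.05, against 4.98% and 6.64% of all genes. Olig2 read 9.59, 4.84 and 6.9 and Olig1 9.9, 5.79 and 6.52 in MYC+Bmi1 cultures 1 to 3. Culture 1 was also the highest of the 3 in Gpr17 at 8.44 and in Cnp at 10.62, while the neuron marker mean was highest in it as well, at 9.0. The differences to MYC were -1.44 ± 1.13 for Olig1 (limma adjusted p = 0.664), -1.35 ± 1.18 for Olig2 (limma adjusted p = 0.704) and -0.96 ± 0.558 for Nkx2-2 (limma adjusted p = 0.524). Without MYC cultures 4 and 5, 5 of the 30 genes were lower, while 0.732% of all genes were.

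For HRAS+Bmi1 against HRAS, 1 of 30 genes passed: Ncan was higher, while 2.87% of all genes tested were higher and 3.04% lower. Ncan read 9.47 and 9.75 in HRAS+Bmi1 cultures and 5.47 to 8.99 in HRAS cultures, with no overlap, and it was 8.67-fold higher (log2 difference 3.12 ± 0.824, limma adjusted p = 0.0212). The call was lost when either HRAS+Bmi1 culture was left out. Bcan read 9.19 and 8.77 in HRAS+Bmi1 cultures, also above all HRAS cultures, the highest of which was 8.73, but it did not pass. Olig2 read 6.96 and 7.09 and Olig1 7.3 and 7.6 in HRAS+Bmi1 cultures, within the HRAS range, with differences of 1.13 ± 1.4 (limma adjusted p = 0.789) and 0.78 ± 1.34 (limma adjusted p = 0.871). Nkx2-2 differed by 0.34 ± 0.66 (limma adjusted p = 0.889). In the same 2 cultures the mean of 5 neural stem cell markers was 10.86 and 10.85, above the 8.74 to 10.01 of the HRAS cultures, and its part in the Ncan result was not tested.

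The effect of Bmi1 on MYC cells was set against its effect on HRAS cells in the same model. Of the 30 genes, 1 passed, while 1.33% of all genes tested were lower and 1.1% higher: for Ncan the difference between both effects was -4.67 ± 1.08 (limma adjusted p = 0.0191). Ncan read 9.93, 8.33 and 7.28 in MYC+Bmi1 cultures, below or within the MYC range of 8.67 to 10.82. Leaving out MYC+Bmi1 culture 3 or either HRAS+Bmi1 culture ended the call. Of the 8 astrocyte markers Aldh1l1 passed in the same contrast (-2.27 ± 0.42, limma adjusted p = 0.00271), and of the 5 neural stem cell markers Prom1 (-3.74 ± 0.751, limma adjusted p = 0.00637). Both were higher in HRAS+Bmi1 than in HRAS cultures, Aldh1l1 by 1.89 and Prom1 by 3.30 (limma adjusted p = 0.000444 and 0.000582). The mean of the 8 astrocyte markers was 7.31 and 7.38 in HRAS+Bmi1 cultures and 6.64 to 7.19 in HRAS cultures, and the part of these markers in the Ncan result was not tested. The differences were -2.22 ± 1.76 for Olig1 (limma adjusted p = 0.568), -2.48 ± 1.83 for Olig2 (limma adjusted p = 0.531) and -1.30 ± 0.865 for Nkx2-2 (limma adjusted p = 0.479).

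When HRAS was added to MYC tumour cells, 6 of 30 genes were lower and 1 higher than in MYC cultures, while 10.6% of all genes tested were lower and 9.83% higher. The precursor proteoglycans Bcan and Ncan and the mature genes Mbp, Cldn11, Sirt2 and Tspan2 were lower, and Mal was higher. Cldn11 read 6.57 and 6.18 in MYC then HRAS cultures, below every MYC culture (log2 difference -2.48 ± 0.721, limma adjusted p = 0.0142). Tspan2 read 5.35 and 5.46, also below every MYC culture (log2 difference -2.44 ± 0.657, limma adjusted p = 0.00815). The 2 MYC then HRAS cultures differed from each other in the precursor genes: Ncan read 9.66 and 5.7 and Bcan 7.85 and 5.47. Their neural stem cell marker means differed too, at 9.91 and 8.66. Of these markers Fabp7 read 10.89 and 4.52, while Sox2 read 10.93 and 11.31 and Nes 9.43 and 9.52. Prom1, at 4.86 and 4.66, and Vim, at 13.44 and 13.31, differed little. Their astrocyte marker means were 7.39 and 6.34. The part of these markers in that split was not tested. Against MYC cultures 5 of the 9 neuron markers were lower (Syp, Dcx, Tubb3, Map2 and Elavl4), with a marker mean of 5.55 to 5.59 in MYC then HRAS and 6.46 to 9.28 in MYC cultures. Of the 8 astrocyte markers 2 were lower (Slc1a2 and Slc1a3), with a mean of 6.4 to 8.96 in MYC cultures. The part of these cells in the lineage counts was not tested.

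The lineage factors did not pass in MYC then HRAS against MYC: Olig1 read 7.13 and 5.25 (log2 difference -2.66 ± 1.31, limma adjusted p = 0.165). Olig2 read 6.6 and 5.14 (log2 difference -2.59 ± 1.36, limma adjusted p = 0.197). Nkx2-2 read 5.37 and 5.28 (log2 difference -1.19 ± 0.645, limma adjusted p = 0.213). The count of lower genes was 18 without MYC cultures 4 and 5, 12 without culture 4, 11 without culture 5 and 3 without MYC culture 1, while 11.6%, 10.5%, 11.3% and 9.87% of all genes were lower in those fits. It was 2 without MYC then HRAS culture 1 and 0 without culture 2, against 5.97% and 4.68% of all genes. The calls of Cldn11, Sirt2, Tspan2, Mbp and Mal were each lost without either MYC then HRAS culture, and those of Bcan and Ncan without MYC then HRAS culture 2 or without MYC culture 1, 2 or 6, Bcan also without MYC culture 3. That of Mbp was lost without MYC culture 1 too.

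When MYC was added to HRAS tumour cells, 1 of 30 genes, Tspan2, was lower than in HRAS cultures and 0 were higher, while 6.21% of all genes tested were lower and 6.3% higher. At an unadjusted limma p under 0.05 the counts were also 1 and 0, against 10.9% and 13.4% of all genes. Tspan2 read 5.68 and 5.14 in HRAS then MYC cultures, below every HRAS culture (log2 difference -2.73 ± 0.674, limma adjusted p = 0.00723), and the call was lost without HRAS then MYC culture 2. Tspan2 was thus low in all 3 groups that carried both oncogenes, at 4.63 to 5.68, and it was also low in MYC+Bmi1 cultures 2 and 3, at 4.93 and 4.84, and in MYC+Ezh2 culture 2, at 5.34. Olig1 read 5.85 and 5.39 (log2 difference -1.05 ± 1.34, limma adjusted p = 0.727), Olig2 4.96 and 5.28 (-0.77 ± 1.4, limma adjusted p = 0.823) and Nkx2-2 5.32 and 4.94 (-0.33 ± 0.66, limma adjusted p = 0.843).

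No lineage gene passed between the groups that received both oncogenes at different times. For MYC then HRAS against HRAS+MYC, 0 of 30 passed, while 0.0401% of all genes tested were lower and 0.0702% higher, and 0 passed at an unadjusted limma p under 0.05, against 3.41% lower and 3.97% higher of all genes. For HRAS then MYC against HRAS+MYC, 0 of 30 passed, while 5.17% of all genes were lower and 6.89% higher, and 2 were lower at an unadjusted p under 0.05, against 10.3% of all genes. For MYC then HRAS against HRAS then MYC, 0 of 30 passed, while 1.58% of all genes were lower and 1.7% higher, and 1 was higher at an unadjusted p under 0.05, against 5.78% of all genes. The Olig2 differences in these 3 comparisons were 0.92 ± 1.34, 0.17 ± 1.34 and 0.75 ± 1.67, those of Olig1 0.61 ± 1.29, 0.05 ± 1.29 and 0.57 ± 1.6 and those of Nkx2-2 -0.12 ± 0.633, -0.31 ± 0.633 and 0.20 ± 0.789. With 2 cultures in a group, the errors of Olig1 and Olig2, 1.29 to 1.67, leave room for differences of more than 2 log2 units. Those of Nkx2-2 were smaller, at 0.633 to 0.789.

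A further 27 genes of the lineage and its surroundings were measured. In HRAS against MYC 12 of the 27 were lower and 2 higher, while 18.0% of all genes tested were lower and 15.4% higher. In HRAS+MYC against MYC 17 were lower and 3 higher, while 18.4% of all genes were lower and 15.8% higher. The precursor factor genes Sox6 and Sox8 were lower in both, with log2 differences of -2.06 and -2.28 for Sox6 and of -2.54 and -2.90 for Sox8. Cspg5, a proteoglycan gene of neurons and glia, was lower in HRAS+MYC than in MYC cultures (log2 difference -2.24, limma adjusted p = 1.34e-05). Ptprz1, a receptor phosphatase gene of precursors, was lower in HRAS than in MYC cultures (log2 difference -4.21, limma adjusted p = 0.000997). Sox9, a glial factor gene, was higher in HRAS than in MYC cultures by 1.71 (limma adjusted p = 0.00303), and Car2, a carbonic anhydrase gene of oligodendrocytes, was higher in HRAS+MYC than in MYC cultures by 2.42 (limma adjusted p = 0.0126). In the same 2 comparisons the log2 differences of Cntn1, an adhesion gene of neurons and glia, were -3.93 and -4.62, and those of Gjc3, a gap junction gene of myelinating glia, -2.81 and -2.86.

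Sox10, the factor that maintains the lineage and activates Myrf, lay between 5.58 and 5.94 in HRAS, 5.63 and 5.93 in HRAS+MYC and 5.44 and 7.87 in MYC cultures, highest in MYC cultures 2 and 1. It did not pass in HRAS against MYC (-0.66 ± 0.284, limma adjusted p = 0.0739) or in HRAS+MYC against MYC (-0.64 ± 0.261, limma adjusted p = 0.0606). Pdgfra, the growth factor receptor of precursors, was high in all 5 HRAS cultures, at 8.56 to 10.22, unlike Olig2. In MYC cultures it lay between 9.12 and 10.76 in cultures 1, 2, 3 and 6 and at 6.51 and 5.51 in cultures 4 and 5, the split seen for Olig2. Pdgfra was lower in HRAS+MYC than in HRAS cultures (log2 difference -2.71 ± 0.669, no overlap, limma adjusted p = 0.00329). Pdgfra was also lower in HRAS+MYC than in MYC cultures (log2 difference -1.98 ± 0.635, limma adjusted p = 0.016). In HRAS+Bmi1 against HRAS, Car2 was higher by 4.10 ± 1.13 (limma adjusted p = 0.0278) and the transferrin gene Trf by 3.10 ± 0.936 (limma adjusted p = 0.0466). These were 2 of the 27 genes, while 2.87% of all genes tested were higher. Trf at 9.65 and 9.31 in the HRAS+Bmi1 cultures lay below HRAS culture 3, at 10.45.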

How the data were processed

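Each of the 32 cultures was hybridised to 1 Mouse Gene 1.0 ST array. The submitters' processing notes name RMA and version 1.0 of Affymetrix Expression Console. The deposited table holds 1 log2 value per probe set and array, a unit inferred from its range between 1.44 and 14.52, with array medians of 5.59 to 5.79. RMA equalises the arrays' distributions, so an overall shift of RNA would not be seen, and it compresses changes of dim probe sets. No source here names filters or scan batches, and with no depth on arrays the number of arrays limits the precision.

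Of 35557 probe sets, 21789 have 1 gene symbol, 1621 several, and 12147 are not listed in the platform annotation used for names. A gene with several probe sets (999 genes) took the one with the highest mean, which left 19938 genes. Groups came from the sample titles. One limma 3.58.1 model (R 4.3.3) with 8 group means was fitted to all arrays. Each p is two-sided and adjusted by Benjamini-Hochberg over all genes of a comparison, with a threshold of 0.05. The steps were tested on simulated data. The members and lists were chosen with earlier results of these data known. All members may be named in the first 3 comparisons, and elsewhere those that passed, with Olig1, Olig2 and Nkx2-2 always. The further lineage genes named are Sox10 and Pdgfra and a part of those with the largest called differences. Bcan, Gpr17 and Cnp in the Polycomb comparisons, the other-cell markers named, single values of Gpr17, Bcas1 and Nkx6-2 and Tspan2 in MYC+Bmi1 and MYC+Ezh2 were picked after their values were seen. MYC cultures 4 and 5 and HRAS culture 3 were likewise singled out from their values. Promoter windows are RefSeq's.

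Replicate numbers were checked as possible pairs: same-numbered arrays had correlations of their deviations from group means between -0.301 and 0.343, and no comparison with 3 or more pairs had all of them above 0.1, so the numbers were not used as pairs. Alternatives were the fit on the compared groups alone, the replicate number as a block, leaving out arrays, dim genes left out, mean over probe sets, array weights, median centring, and a trended robust variance prior. No 2 arrays of a group shared more than 0.0903% of their values. This finds copied data only and cannot show repeat arrays of 1 tumour. Each array was counted as a sample. MYC cultures 1 and 2 were the closest pair of MYC arrays, with an SD of the gene-wise difference of 0.308, against 0.799 for the furthest pair.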

Additional observations from a re-analysis of the deposited data

Results flagged for a closer look

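Of 120 sets of arrays (1 gene in 1 group of 4 to 10 arrays), 14 held an array far from the others of its group, where chance marks about 1 in 20 such sets. HRAS culture 3 accounts for 8 of the 14. It was above the other 4 HRAS cultures in Nkx2-2 at 6.49 (others 4.92 to 5.36), in Bcan at 8.73 (5.37 to 5.86), in Lhfpl3 at 8.32 (5.32 to 5.96), in Bcas1 at 6.9 (4.26 to 4.79), in Ugt8a at 8.21 (4.95 to 5.72) and in Omg at 6.58 (3.98 to 4.43). It was below them in Enpp6 at 4.05 (4.5 to 4.57) and in Mog at 5.26 (5.67 to 5.82). The same culture had the highest neuron marker mean of the HRAS cultures, 6.8, and the highest neural stem cell marker mean, 10.01. Of the stem cell markers Fabp7 read 9.89 there and 4.17 to 4.6 in the other HRAS cultures. Nes, at 10.62, lay just above the others, 9.58 to 10.54, and Sox2, Prom1 and Vim lay within their range. The part of these markers in the flagged values was not tested.

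HRAS culture 5 had less Vcan, at 7.31 (others 9.28 to 9.94), and more Cnp, at 10.06 (8.6 to 8.93). Among HRAS+MYC cultures, Mog was at 6.11 in culture 1 (others 5.7 to 5.82), Cnp at 7.88 in culture 7 (7.41 to 7.57) and Aspa at 6.97 in culture 2 (3.56 to 4.3). Zfp488 was at 6.31 in MYC+Ezh2 culture 1 (others 5.14 to 5.48).

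The effect of Bmi1 on Ncan differed between MYC and HRAS cells by -4.67 on the log2 scale (limma adjusted p = 0.0191, a test of the difference between both effects). With each array left out in turn the adjusted p ranged between 0.00124 and 0.12.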

How the results depend on the processing

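Counts below are of the 30 genes at a limma adjusted p under 0.05. Shares of all genes are given above for some of these fits. Where none is given, as with array weights, a count cannot be weighed against that of all genes. Leaving out MYC cultures 4 and 5 gave 19 lower genes in HRAS against MYC, 7 in MYC+Ezh2 against MYC, 5 in MYC+Bmi1 against MYC and 2 for the Bmi1 effect in MYC minus that in HRAS cells, and 18 lower and 0 higher in MYC then HRAS against MYC. Array weights gave 19 lower in HRAS against MYC, 11 in MYC+Ezh2 against MYC, 18 in MYC then HRAS against MYC, 1 in HRAS then MYC against HRAS+MYC and 3 for the difference of Bmi1 effects, and 2 higher in HRAS+Bmi1 against HRAS. The fit on the compared groups alone gave 6 lower in HRAS against MYC, 2 in HRAS+MYC against HRAS, 1 in MYC then HRAS against MYC, 0 in HRAS then MYC against HRAS and 0 for the difference of Bmi1 effects, and 0 higher in HRAS+Bmi1 against HRAS and 1 higher in HRAS then MYC against HRAS+MYC. With only genes over the median in a group, 0 were higher in HRAS+MYC against MYC, in HRAS+MYC against HRAS and in MYC then HRAS against MYC, because Mal is not among the genes tested, and 10 were lower in MYC then HRAS against MYC. Centring gave 2 higher in HRAS+MYC against MYC. With the mean over genes in place of the median, 6 group medians of the class levels moved by at least their SD between arrays.

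With each array left out in turn, lower genes numbered 10 to 17 in HRAS against MYC, 15 to 20 in HRAS+MYC against MYC, 0 to 12 in MYC then HRAS against MYC, 0 to 2 in MYC+Ezh2 against MYC, 0 to 2 in MYC+Bmi1 against MYC, 0 to 1 in HRAS then MYC against HRAS and 0 to 2 for the difference of Bmi1 effects. Higher genes numbered 1 to 2 in HRAS+MYC against MYC, 1 to 2 in HRAS+MYC against HRAS, 0 to 2 in HRAS+Bmi1 against HRAS and 0 to 1 in MYC then HRAS against MYC.

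The replicate numbers were not used as pairs, and the correlations given above cannot show whether any arrays were paired. With the replicate number as a block, 11 genes were lower and 0 higher in MYC then HRAS against MYC, 1 was lower in HRAS then MYC against HRAS+MYC and 0 were higher in HRAS+Bmi1 against HRAS. With that block the difference of Nkx2-2 in HRAS+MYC against HRAS was 0.03, and in HRAS then MYC against HRAS+MYC that of Olig1 was -0.53 and that of Olig2 -0.49, each opposite in sign to the reported one.

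Signs of differences that did not pass also turned elsewhere. Nkx2-2 in HRAS+MYC against HRAS was 0.08 with array weights, 0.05 with centring and between -0.16 and 0.24 with single arrays left out. With single arrays left out, MYC+Ezh2 against MYC ranged between -1.19 and 0.14 for Olig1, -1.12 and 0.17 for Olig2 and -0.44 and 0.31 for Nkx2-2. Likewise Olig1 ranged between -0.33 and 1.55 in MYC then HRAS against HRAS+MYC, -0.19 and 0.28 in HRAS then MYC against HRAS+MYC and -0.37 and 1.51 in MYC then HRAS against HRAS then MYC. The cause of these changes was not tested. The number of arrays, 2 in each of the smallest groups, limits the precision.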
